A study of Arabidopsis thaliana with 4 samples.

Results

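The transcripts described here are those of 10 tau-class glutathione S-transferase (GST) genes of Arabidopsis thaliana, namely GSTU15, GSTU16, GSTU20, GSTU21, GSTU22, GSTU23, GSTU25, GSTU26, GSTU27 and GSTU28. They are a list of family members given by gene name, without a threshold on their values, and the list was drawn up with earlier results of these data known. The platform annotation names for each of them alone a probe set, the group of short probes with which the array reads a transcript, and each had exactly 1 such probe set. They are 10 of 13355 genes that can be read in this way, and all 10 were kept, since no filter on low signal was used. The RefSeq gene table (assembly TAIR10.1) holds 28 tau-class genes, of which 11 had a probe set of their own, meaning named for that gene alone. The eleventh, GSTU18, is not one of the 10 and is given beside them. The remaining tau-class genes may be read by probe sets that are unnamed here or name several genes.

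GSTs conjugate the tripeptide glutathione to toxic compounds, which are then moved out of the cytosol and broken down. The tau class is specific to plants and is the largest class of the family in Arabidopsis, where many of its genes lie in tandem rows that arose by duplication. Tau-class transcripts in seedlings are known to respond to herbicides and safeners, to hormones and to oxidative stress, and TGA transcription factors are among their regulators.

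Whole 14-day-old Columbia seedlings were grown on MS medium without stress, with 16 h of light and 8 h of darkness by the sample labels. The study's methods give a shorter light period. Total RNA was measured on 4 Affymetrix arrays. Of these, 2 carry the genotype label GST-overexpression and 2 are labelled wild-type (WT), and the submitters count the arrays of each genotype as biological replicates. The study raised several transgenic lines in which OsGSTU4, a tau-class gene of rice, is expressed from the constitutive promoter from cauliflower mosaic virus. For its arrays it used a single line, which had the lowest transgene level of those it compared. The comparison asks which transcripts of unstressed seedlings differ when the rice gene is overexpressed. The labels name no line, and a sentence of the submitters' text speaks of a GRX line instead. The rice transgene has no probe set to its name on this array, so it does not check the labels. The genotype differences below are GST-overexpression minus WT as labelled, and their direction is opposite to the one that the study gives for the genes it lists. For that reason the arrays are called by their labels, and every sign below would turn if the labels were exchanged. Values are the authors' log2 signals, and a log2 difference of 1 is a fold of 2.

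The arrays were similar in overall level, with median log2 signals of 7.41 and 7.42 on the GST-overexpression arrays and 7.29 and 7.38 on the WT arrays. The gap between the 3′ and 5′ probe sets of actin, which grows as RNA is degraded or incompletely copied, was 4.07 and 3.76 on the GST-overexpression arrays and 3.48 and 3.53 on the WT arrays. For GAPDH the gap was smaller, at 1.05 and 1.36 on the GST-overexpression arrays and 1.01 and 0.96 on the WT arrays. For both controls the gap was larger on each GST-overexpression array than on either WT array. Within GST-overexpression, replicate 1 had the larger gap for actin and the smaller one for GAPDH. The part of these gaps in the differences below was not tested. Of 14 shoot markers 3 had a probe set of their own, and their summed linear signal was 46192 and 59162 on the GST-overexpression arrays, against 39652 and 53764 on the WT arrays. Of 17 root markers only EXPA7, an expansin gene of root hairs, could be read, at 6.79 and 4.50 on the GST-overexpression arrays and 7.11 and 7.17 on the WT arrays. Neither list had a member at 0. In RNA from whole seedlings, fewer cells of a type and less RNA per cell cannot be told apart, and the part of tissue proportions in the differences was not tested.

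Of the 10 genes, GSTU20 had a higher mean on the GST-overexpression arrays and the other 9 had a lower mean. Their median log2 difference was -0.39, against 0.04 over all 22746 probe sets tested. Among all probe sets, 54% had a higher and 46% a lower mean on the GST-overexpression arrays. No tau-class gene among them passed the study's thresholds, a fold change of at least 2 with an unadjusted P of at most 0.05 (here from limma), which 2.38% of all probe sets passed in the higher and 2.34% in the lower direction. None passed an adjusted p of 0.05 in limma either, and neither did any other probe set (0% called, with 5.79% at an unadjusted P under 0.05). Adjusted p ranged from 0.895 to 0.981 over the 10 genes. Both GST-overexpression arrays were above both WT arrays for GSTU20 alone, as was the case for 21.1% of all probe sets. They were below both WT arrays for GSTU22 and GSTU27, as for 16.3% of all probe sets. For the other 7 genes the arrays of the 2 genotypes overlapped. The study itself lists GSTU1, GSTU7, GSTU11 and GSTU24 as past its thresholds and higher in the transgenic line. It also reports higher transcript levels of selected GST genes by real-time PCR. None of those 4 is among the 10 genes, and none had a probe set of its own here. Signs here run opposite to those of the study for the genes it lists. Its direction for those 4 and the lower means above therefore cannot be set against each other.

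**Figure D1:**
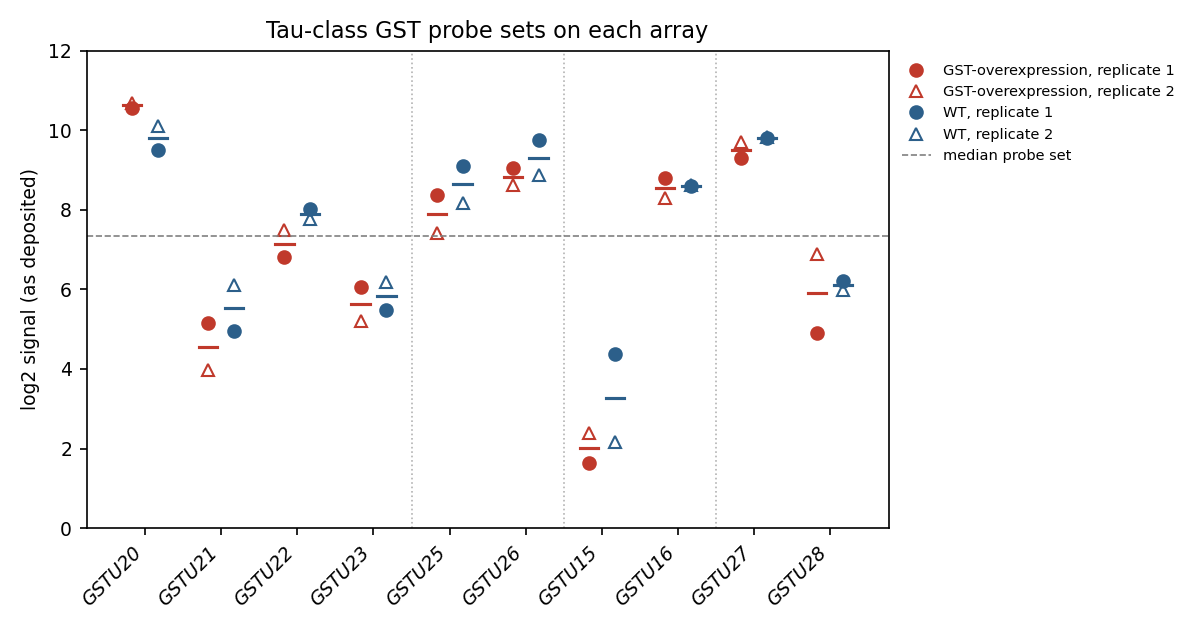
Log2 signal of the 10 tau-class GST probe sets on each array, with GST-overexpression in red, WT in blue, filled circles for replicate 1, open triangles for replicate 2 and short bars for the mean of each genotype (n = 2). Dotted lines separate the tandem groups and the dashed line is the mean signal of the median probe set, 7.35. GSTU20 is the gene with both GST-overexpression arrays above WT, and GSTU15, GSTU21, GSTU23 and GSTU28 lie under the dashed line.

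GSTU16, GSTU20, GSTU22, GSTU25, GSTU26 and GSTU27 had a mean signal above that of the median probe set, 7.35, whereas GSTU15, GSTU21, GSTU23 and GSTU28 were dimmer. In the 6 brighter genes the gap between replicate arrays had a median of 0.47 in the GST-overexpression arrays and 0.42 in the WT arrays. In the 4 dimmer genes it was 1.03 and 0.94. Over all probe sets the corresponding medians were 0.22 and 0.27 above the median signal, and 0.78 and 0.92 below it. The order did not hold gene by gene. The gaps of the brighter GSTU25 were 0.96 and 0.91, above those of the dimmer GSTU23 at 0.85 and 0.71, and in WT the gaps of GSTU16, GSTU22 and GSTU27 were below 0.27. With 2 arrays in each group, an exact permutation test of a single gene cannot give a p below 0.333.

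GSTU20, GSTU21, GSTU22 and GSTU23 follow each other on chromosome 1 (AT1G78370, AT1G78360, AT1G78340 and AT1G78320) with no other protein-coding gene between them in the RefSeq table. The row goes on to GSTU19, which had no probe set named for it alone. GSTU20 encodes an enzyme that binds FIN219, a jasmonate-conjugating enzyme of far-red light signalling, and that has also been linked to glucosinolate synthesis. Its log2 signal was 10.56 and 10.69 on the GST-overexpression arrays, against 9.50 and 10.10 on the WT arrays. All values of the GST-overexpression arrays were higher, and the WT arrays were 0.60 apart while the GST-overexpression arrays were 0.13 apart. The mean was 10.63 ± 0.09 in GST-overexpression and 9.80 ± 0.43 in WT (SD, n = 2 each), a log2 difference of 0.83 (standard error 0.32, adjusted p = 0.895 in limma). This is a fold of 1.78, with a 95% interval of 0.921 to 3.42. Without WT replicate 2 the difference was 1.13, which passed the thresholds of the study (adjusted p = 0.613 in limma), and without WT replicate 1 it was 0.53.

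GSTU22 stood the other way. Its signal was 6.80 and 7.49 on the GST-overexpression arrays, against 8.01 and 7.78 on the WT arrays. The arrays of both genotypes stood apart, but GST-overexpression replicate 2 lay closer to WT replicate 2 than to its own replicate. The log2 difference was -0.75 (0.35, adjusted p = 0.895 in limma), a fold of 0.596 with an interval of 0.289 to 1.23. Without GST-overexpression replicate 1 it was -0.40.

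GSTU21 and GSTU23 were dim in both genotypes and their arrays overlapped. GSTU21 had 5.17 and 3.96 on the GST-overexpression arrays and 4.95 and 6.11 on the WT arrays, and its log2 difference of -0.97 had a standard error of 0.67. The difference was -0.37 without GST-overexpression replicate 2, -0.39 without WT replicate 2, -1.57 without GST-overexpression replicate 1 and -1.55 without WT replicate 1. GSTU23 had 6.05 and 5.20 on the GST-overexpression arrays and 5.48 and 6.19 on the WT arrays, with a difference of -0.21 (0.48). In both genes replicate 1 was above replicate 2 in GST-overexpression and below it in WT. The difference of GSTU23 turned to 0.21 without GST-overexpression replicate 2 and to 0.15 without WT replicate 2.

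**Figure D2:**
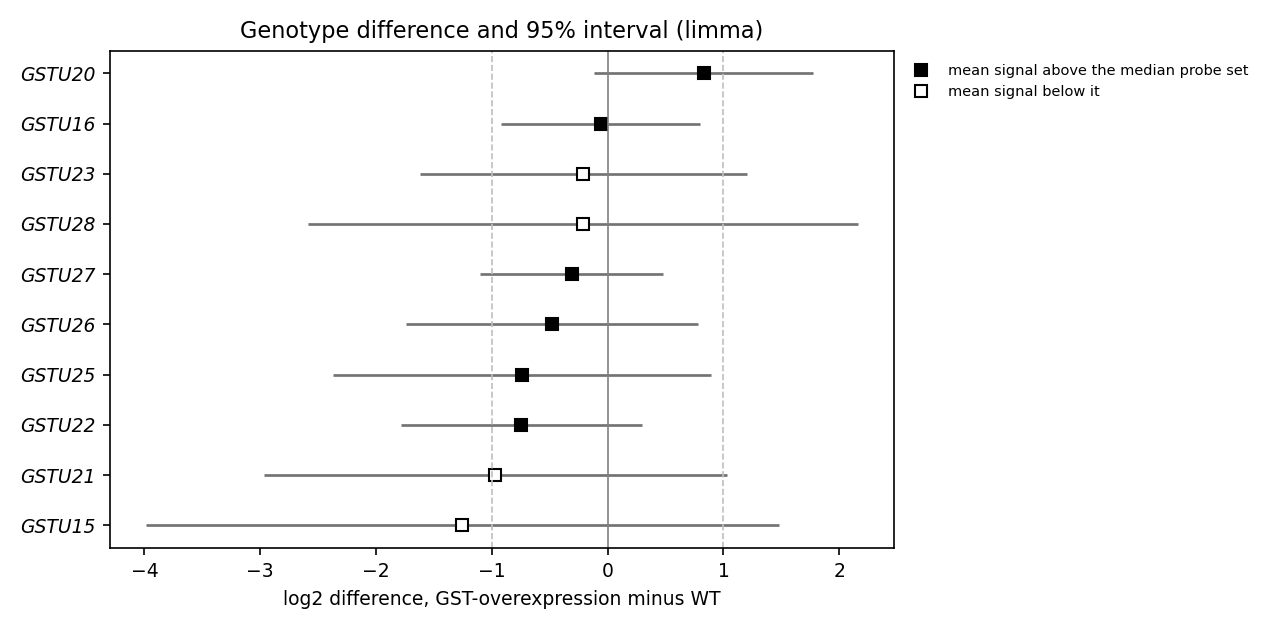
Log2 difference of each gene, GST-overexpression minus WT, with its 95% interval from limma. Filled squares are genes with a mean signal above the median probe set, open squares those below it, and dashed lines mark a fold of 2. GSTU20 lies to the right of 0 and the other 9 to the left, and every interval includes 0.

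GSTU25 and GSTU26 (AT1G17180 and AT1G17190) are adjacent on the same chromosome, beside GSTU24, which had no probe set named for it alone. The enzyme of GSTU25 can conjugate the explosive trinitrotoluene, and transcripts of this group are well known to be induced by xenobiotics. GSTU25 had a log2 signal of 8.38 and 7.42 on the GST-overexpression arrays, against 9.10 and 8.18 on the WT arrays. Replicate 1 of GST-overexpression was above replicate 2 of WT, so the genotypes overlapped, and replicate 1 was the higher array within each genotype. The log2 difference was -0.74 (0.55, adjusted p = 0.895 in limma), a fold of 0.598 with an interval of 0.193 to 1.85. GSTU26 had 9.05 and 8.63 on the GST-overexpression arrays, against 9.75 and 8.89 on the WT arrays. Again replicate 1 was the higher array within each genotype and the genotypes overlapped. Its difference was -0.48 (0.43), a fold of 0.718 with an interval of 0.300 to 1.72. Without WT replicate 1 the differences were -0.29 for GSTU25 and -0.05 for GSTU26, and without WT replicate 2 they were -1.20 and -0.91. Without GST-overexpression replicate 2 they were -0.26 and -0.26, and without GST-overexpression replicate 1 they were -1.22 for GSTU25 and -0.69 for GSTU26.

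GSTU15 and GSTU16 (AT1G59670 and AT1G59700) lie near each other on chromosome 1 with 3 protein-coding genes between them. GSTU15 was close to the floor of the scale at 0, with 1.63 and 2.39 on the GST-overexpression arrays and 4.38 and 2.16 on the WT arrays. WT replicate 1 stood apart from the other 3 arrays. The log2 difference of -1.26 (0.92) was -0.15 without that array. Without WT replicate 2 it was -2.36 and passed the thresholds of the study (adjusted p = 0.564 in limma). GSTU16 had a signal above the median probe set, with 8.80 and 8.29 on the GST-overexpression arrays and 8.61 and 8.61 on the WT arrays. The GST-overexpression arrays lay on either side of WT, and the difference was -0.06 (0.29), with an interval of the fold of 0.528 to 1.74.

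GSTU27 and GSTU28 stand alone in the genome, GSTU27 (AT3G43800) on chromosome 3 and GSTU28 (AT1G53680) on chromosome 1. GSTU27 had 9.30 and 9.71 on the GST-overexpression arrays, against 9.79 and 9.83 on the WT arrays. The WT arrays nearly coincided and both GST-overexpression arrays were lower, replicate 2 by little. The log2 difference was -0.31 (0.27, adjusted p = 0.895 in limma), a fold of 0.806 with an interval of 0.466 to 1.40. It was -0.11 without GST-overexpression replicate 1 and -0.52 without GST-overexpression replicate 2. GSTU28 had 4.90 and 6.90 on the GST-overexpression arrays, against 6.22 and 5.998 on the WT arrays. The WT values fell between those of the GST-overexpression arrays. Its difference of -0.21 (0.80) was 0.79 without GST-overexpression replicate 1, and so it has no settled direction.

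Neighbours in a tandem row were next compared with each other on the same array, since levels of different probe sets cannot be set against each other but a change in their ratio can. The log2 ratio of GSTU20 to GSTU22 was 3.76 and 3.20 on the GST-overexpression arrays, against 1.49 and 2.32 on the WT arrays. The genotypes did not overlap and differed by 1.58. The ratio of GSTU20 to GSTU21 was 5.40 and 6.73 on the GST-overexpression arrays and 4.55 and 3.99 on the WT arrays, a difference of 1.80. That of GSTU20 to GSTU23 was 4.51 and 5.49 on the GST-overexpression arrays and 4.02 and 3.91 on the WT arrays, a difference of 1.04. With an array left out in turn, the difference ran from 1.16 to 1.99 for GSTU22, from 1.13 to 2.46 for GSTU21 and from 0.55 to 1.53 for GSTU23, the lowest of the last 2 without GST-overexpression replicate 2. All 3 ratios thus were higher on both GST-overexpression arrays, and they share the values of GSTU20. They are no more independent than that gene and were not tested against other genes.

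Among the other 3 members of this row the picture was mixed. The ratio of GSTU21 to GSTU23 was -0.88 and -1.24 on the GST-overexpression arrays, against -0.53 and -0.08 on the WT arrays, without overlap and with a difference of -0.76. Both of these genes were dim. The ratios of GSTU21 to GSTU22 and of GSTU22 to GSTU23 overlapped between genotypes, with differences of -0.22 and -0.54. In the pair GSTU25 and GSTU26 the ratio was -0.67 and -1.21 on the GST-overexpression arrays and -0.65 and -0.70 on the WT arrays. The genotypes differed by -0.26 on average and overlapped, against a gap of 0.53 between the GST-overexpression arrays. In the pair GSTU15 and GSTU16 the ratio was -7.17 and -5.90 on the GST-overexpression arrays and -4.23 and -6.45 on the WT arrays, a difference of -1.20 that came from GSTU15. The 4 ratios without overlap had an exact two-sided permutation p = 0.333, the smallest that 2 arrays against 2 allow, and an adjusted p = 0.667 over 8 pairs. Of these 4 ratios 3 share GSTU20. The share of ratios without overlap among other gene pairs was not counted. Whether such ratios are more frequent in the tandem rows than elsewhere was therefore not tested. Because no smaller p was possible with these arrays, the test cannot decide whether any pair differs between genotypes.

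**Figure D3:**
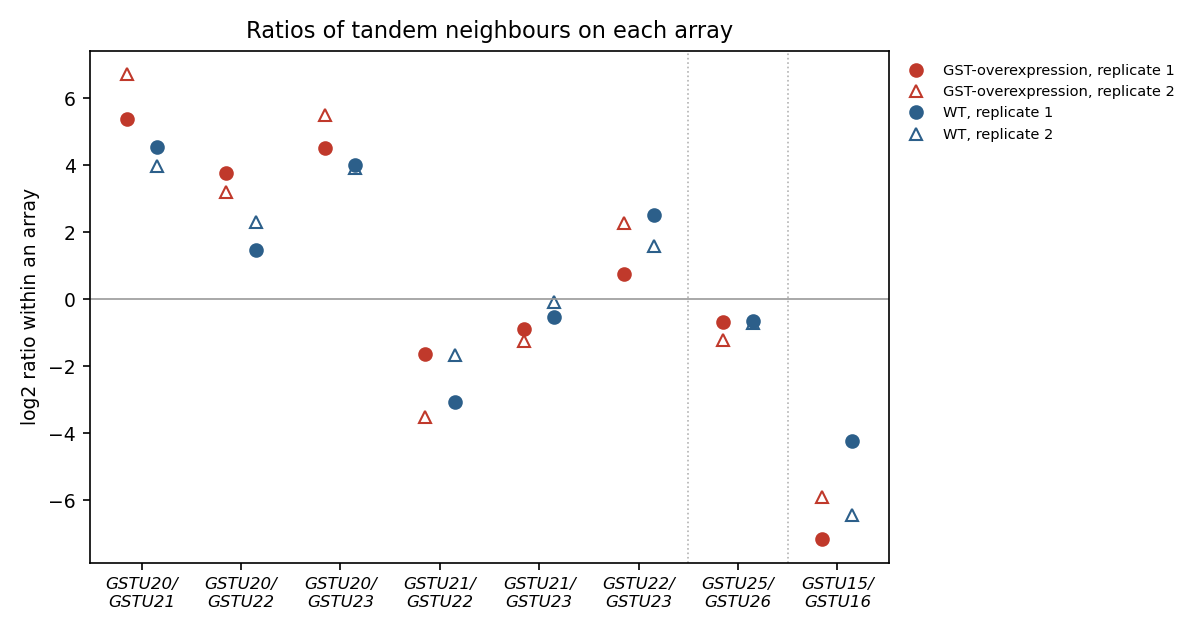
Log2 ratio of tandem neighbours on each array for the 8 pairs, first gene over second, with GST-overexpression in red and WT in blue (filled circles replicate 1, open triangles replicate 2). Dotted lines separate the tandem rows. The 3 ratios with GSTU20 on top are higher on both GST-overexpression arrays, and the pair GSTU25 and GSTU26 overlaps.

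Few other genes of the glutathione pathway had a probe set of their own, and measured below means read by such a probe set. The rest may be read by unnamed or shared probe sets and are not thereby absent from the array. Of the 18 other tau-class genes listed, only GSTU18 was measured in this way. It had 8.41 and 8.87 on the GST-overexpression arrays and 8.40 and 8.78 on the WT arrays, a log2 difference of 0.05 (0.31). Of 13 genes of the phi class, another class of plants, 2 were measured. GSTF13 had 5.40 and 4.96 on the GST-overexpression arrays and 1.01 and 1.48 on the WT arrays. It passed the thresholds of the study in the higher direction, but the WT arrays were close to the floor of the scale, so that the size of the difference is not given. GSTF4 had -0.56 (0.22), with both GST-overexpression arrays below WT, and did not pass. The lambda-class gene GSTL3 had 0.07 (0.25) and was the only measured member of 12 genes of other GST classes. The glutathione reductase gene GR, which regenerates reduced glutathione, had 0.13 (0.47) and was the only measured member of 18 listed genes of glutathione synthesis and turnover. None of the 15 ABCC transporter genes, some of which carry glutathione conjugates into the vacuole, or of the 8 glutathione peroxidase genes could be read alone. The same held for 7 listed genes of light signalling, among them the gene of FIN219.

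Of 23 listed TGA factors and genes of the electrophile response, a programme that also induces tau-class GSTs, 3 were measured, none of them a TGA factor. All 3 had lower means on the GST-overexpression arrays, with a median of -0.76, as did 46% of all probe sets. UGT73B4, a glucosyltransferase gene, passed the thresholds of the study in the lower direction at -1.63 (0.45). The study lists the same gene as past its thresholds but higher in the transgenic line, the opposite direction to the labels used here. Its signal was 6.33 and 6.32 on the GST-overexpression arrays, against 8.48 and 7.43 on the WT arrays. Its relative UGT73B5 had -0.76 (0.56), with overlapping arrays. AER, which encodes an alkenal reductase that detoxifies reactive aldehydes, had 10.84 and 10.70 on the GST-overexpression arrays, against 11.35 and 11.52 on the WT arrays, a difference of -0.67 (0.23). None of these genes passed an adjusted p of 0.05 in limma.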

How the data were processed

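The deposited values are log2 signals that the authors computed for each probe set on each array. RMA is named, without a version, in the submitters' processing notes, but the deposited arrays differ in distribution, have a floor at 0 and a mean linear signal close to 500 between the 2nd and 98th percentile, as MAS5-type scaling leaves them. The number of arrays limits the precision. Labelled RNA was made by 3′ in vitro transcription. The study's methods speak of 3 replicates, and 2 arrays per genotype were analysed here.

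Of 22810 probe sets 64 controls were left out. Probe sets were joined to genes through Entrez ID (13436) or symbol (72), with 5 not joined, and the brightest one stood for a gene. Of the others, 503 name several genes and 8730 are unnamed here. All 10 probe sets have plain identifiers, without the suffix that marks shared probes. Probe sequences were not used here, so cross-hybridisation between relatives was not tested. Limma 3.58.1 (R 4.3.3) was applied to the deposited values of all 22746 probe sets, with Benjamini-Hochberg adjustment and no replicate block. Standard errors and 95% intervals are from limma, and the fit was tested on simulated data. Tandem neighbours were compared by exact permutation. From each list, up to 4 genes past the thresholds or, with none, the 2 brightest were named. Members and lists were chosen with earlier results of these data known. EXPA7, UGT73B5, AER and GSTF4 were named after their values were seen. Pollen and dry seed markers had no probe set of their own.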

Additional observations from a re-analysis of the deposited data

How the results depend on the processing

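Under the alternatives that keep all 4 arrays (each array centred on its median, quantile normalization, a replicate block, an intensity trend and the methods' t-test) each of the 10 genes kept its direction and stayed outside the thresholds of the study. The same held for the 6 of them that remain when only probe sets above the median mean are tested. GSTU20 ran from 0.74 to 0.83. Deviations of same-numbered arrays from their group means had a correlation of 0.05 over all probe sets. With 2 arrays per group replicate 2 mirrors replicate 1, so this is a single comparison. It does not show whether the numbers mark pairs for single genes. The replicate block gave GSTU25 an adjusted p = 0.833 in limma and changed no call of the 10 genes. The lowest adjusted p of any of them under any setting was 0.564. Leaving out each array in turn gave -0.31 to 0.19 for GSTU16, -0.64 to 0.21 for GSTU23 and -1.21 to 0.79 for GSTU28, which changed sign, and 0.53 to 1.13 for GSTU20 and -2.36 to -0.15 for GSTU15. It also gave 1 to 3 genes of the 10 with a higher mean, and 0 to 2 past the thresholds of the study. The ratio difference ran from -1.17 to 0.72 for GSTU21 and GSTU22, from -1.30 to 0.23 for GSTU22 and GSTU23, and from -0.53 to 0.0025 for GSTU25 and GSTU26. Over all probe sets 542 were higher and 532 lower past the thresholds, which became 297 and 286 with the intensity trend, 49 and 47 above the median mean, 239 and 240 with the methods' t-test, and 497 to 1161 and 654 to 849 with an array left out. The intensity trend called 2 probe sets at an adjusted p under 0.05, neither of them one of the 10 genes, against 0. The mean over several probe sets of a gene was not run, as each gene has 1. The causes of these changes were not tested. With 2 arrays per genotype the precision is limited for all 10 genes.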
